A study of Mus musculus with 11 samples.

Results

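The Schlafen family is a cluster of related mouse genes on chromosome 11, and its transcripts were examined in mammary tumors with and without *Pcbp1*. Its members were the genes of the deposited tables named *Slfn1*, *Slfn2*, *Slfn3*, *Slfn4*, *Slfn5*, *Slfn8* and *Slfn9*, which are 7 of 26283 genes. Bulk RNA was sequenced from 11 mammary tumors collected at 18 weeks of age. All animals were of the C57BL/6 strain and carried MMTV-PyMT, the polyomavirus middle T antigen that drives mammary tumors, together with MMTV-Cre. In 6 tumors, called PyMT *Pcbp1*–/–, both alleles of *Pcbp1* were floxed, PCBP1(fl/fl). The 5 control tumors, called PyMT *Pcbp1*+/+, had the PCBP1(wt/wt) alleles. The MMTV promoter directs Cre mainly to mammary epithelial cells, and *Pcbp1* in the other cells of these tumors was not measured separately. The labels used here do not divide the tumors into batches, and no source used here says that each tumor came from a different animal. The p-values therefore measure the spread between these tumors.

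Schlafen proteins take their name from the German verb for sleeping, after the growth arrest seen when the first of them was expressed in T cells. They share a core fold that in several members cleaves or binds tRNA, and the long members add a helicase-like region. Many Schlafen genes are induced by type I interferons, and in mice they are best known from T cells and myeloid cells.

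The deposited estimated counts summed to between 10543189 and 14092192 per tumor. Levels are given as CPM, the deposited counts scaled to the same sum in each tumor, and 3 counts, the upper limit that a count of 0 allows, equalled between 0.213 and 0.285 CPM, a limit for counting error only. *Pcbp1* (ENSMUSG00000051695.6, minus strand of chromosome 6 of GRCm38, 86524492 to 86526321) had a lowest, median and highest value of 15.4, 20.9 and 33.6 CPM in PyMT *Pcbp1*–/– tumors, while PyMT *Pcbp1*+/+ replicates 1 to 5 held 268, 271, 225, 220 and 259 CPM. Every PyMT *Pcbp1*–/– tumor lay far below every PyMT *Pcbp1*+/+ tumor, as their labels say. The log2 fold change, PyMT *Pcbp1*–/– minus PyMT *Pcbp1*+/+ throughout, was -3.43 (standard error, SE, 0.19, with an edgeR adjusted p of 4.72e-06).

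Of the 7 Schlafen genes, 6 had enough counts to be tested. In edgeR's quasi-likelihood test with Benjamini-Hochberg adjustment over 19232 genes, 1 of the 6, *Slfn8*, passed an adjusted p under 0.05 as lower in PyMT *Pcbp1*–/– tumors, beside 1.66% of all genes tested. None of the 6 was higher at that threshold with edgeR, DESeq2 or limma-voom, beside 0.608% of all genes with edgeR. At an unadjusted p under 0.05 from edgeR, 3 of the 6 were lower and 1 was higher, 66.7% in both directions together beside 18.7% of all genes tested. *Slfn8* was also the only tested member whose CPM did not overlap between the groups, with 1 of 6 below the PyMT *Pcbp1*+/+ range beside 2.02% of all genes, and 0 of 6 above it beside 1.27%. The median log2 fold change of the 6 was -0.79, against -0.000123 for all genes tested, and 5 of the 6 values were negative beside 9619 of 19232 for all genes. The negative sign of *Slfn3* among these 5 turned positive without PyMT *Pcbp1*–/– replicate 3 or without PyMT *Pcbp1*+/+ replicate 2, and the 5 signs held under library size only, upper-quartile and DESeq2 scaling. In whole tumors, fewer cells of a type that expresses a gene and less RNA of that gene per cell cannot be told apart.

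**Figure D1:**
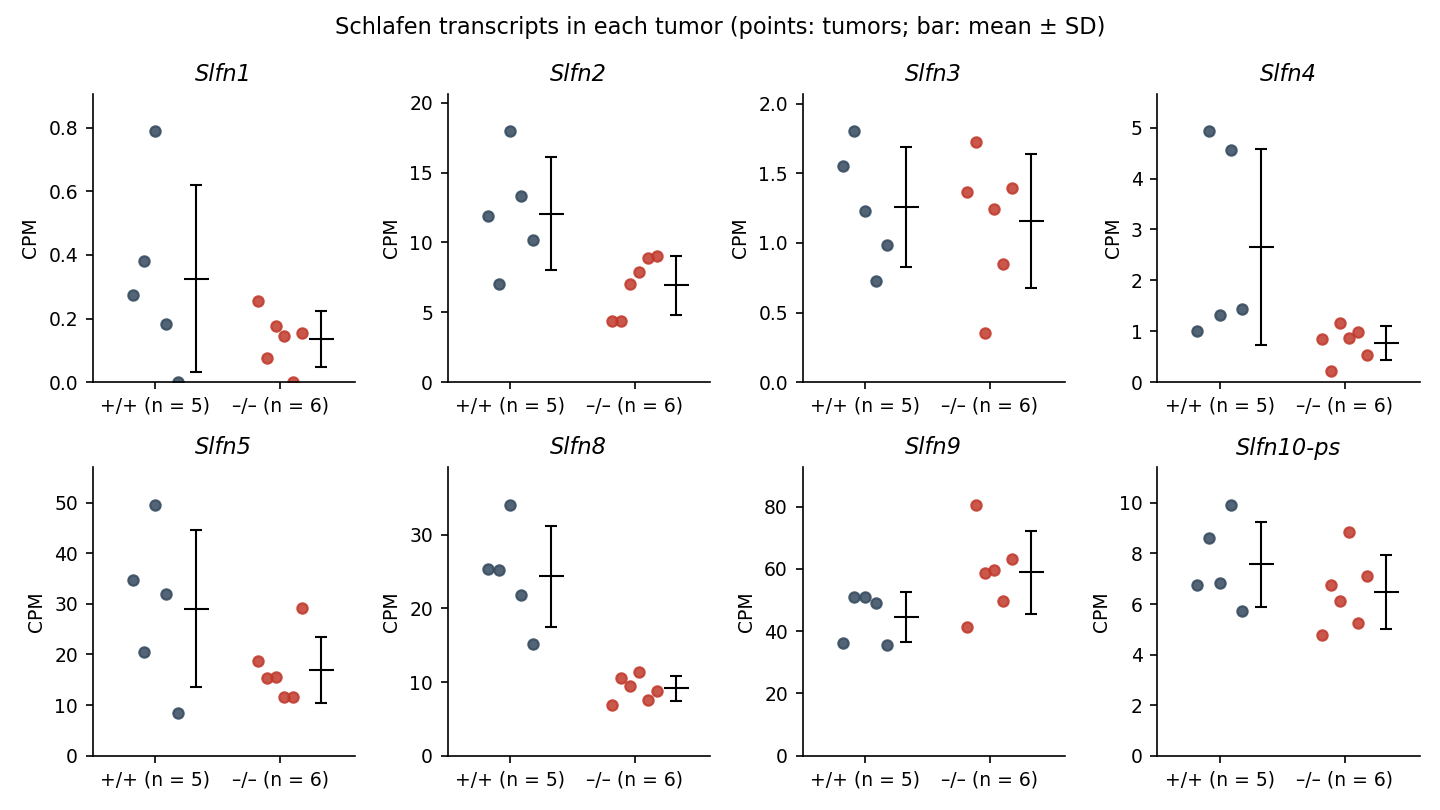
Deposited CPM (vertical axes, each from 0) of the 7 members and of the related *Slfn10-ps* in each of the 5 PyMT *Pcbp1*+/+ tumors (dark points) and 6 PyMT *Pcbp1*–/– tumors (red points), with the group mean and SD as a bar. For *Slfn8*, the 6 PyMT *Pcbp1*–/– tumors sit between 6.92 and 11.4 CPM, all below the lowest PyMT *Pcbp1*+/+ value of 15.2 CPM, while the groups overlap in the other panels.

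*Slfn8*, a long member that carries the helicase-like region, had the clearest difference. Its gene (ENSMUSG00000035208.16) lies on the minus strand from 83002158 to 83020810. PyMT *Pcbp1*–/– tumors had a lowest, median and highest value of 6.92, 9.13 and 11.4 CPM, and PyMT *Pcbp1*+/+ replicates 1 to 5 had 25.3, 25.2, 34.1, 21.9 and 15.2 CPM. The groups did not overlap, with replicate 5 the lowest and replicate 3 the highest of the PyMT *Pcbp1*+/+ tumors. The means were 9.12 ± 1.72 CPM (SD, n = 6) and 24.3 ± 6.83 CPM (SD, n = 5), from between 81 and 389 counts per tumor. *Slfn8* fell by 1.42 on the log2 scale (SE 0.20, with an edgeR adjusted p of 0.00415), and the mean CPM differed with p = 0.00433 in an exact permutation test (two-sided), the smallest p that 6 tumors against 5 allow. Whichever single tumor was left out, the log2 fold change stayed between -1.54 and -1.22.

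*Slfn9*, another long member and the neighbor of *Slfn8* on the same strand (ENSMUSG00000069793.12, 82978390 to 82991830), pointed the other way. It had a lowest, median and highest value of 41.3, 59.2 and 80.7 CPM in PyMT *Pcbp1*–/– tumors, while PyMT *Pcbp1*+/+ replicates 1 to 5 held 36.2, 51.0, 51.1, 49.2 and 35.5 CPM. In 4 of the 6 PyMT *Pcbp1*–/– tumors it was above the highest PyMT *Pcbp1*+/+ value, and the groups overlapped through PyMT *Pcbp1*–/– replicates 1 and 5. The log2 fold change of 0.39 (SE 0.17) was not called by edgeR (adjusted p = 0.238), and a two-sided exact permutation test of its mean CPM gave p = 0.0649.

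*Slfn8*, *Slfn9* and the neighboring *Slfn10-ps*, called copies here, share stretches of sequence. How the authors' counting assigned reads that fit several copies is not given in the sources used here. In their canonical GENCODE transcripts, 9.20% of the 50-base stretches of *Slfn8* also occur in *Slfn9* and 10.9% in *Slfn10-ps*. All 11 counts of each of the 3 genes were whole numbers within 0.01, against 13.8% of all values in the table that were not. The ratio of *Slfn9* to *Slfn8* CPM, which sets each tumor against itself, ranged from 5.23 to 7.63 (median 6.36) across PyMT *Pcbp1*–/– tumors and was 1.43, 2.02, 1.499, 2.25 and 2.34 in PyMT *Pcbp1*+/+ replicates 1 to 5. No tumor of one group had a ratio within the range of the other. *Slfn8* made up 12.3% ± 1.31 (SD, n = 6) of the summed CPM of the 3 genes across PyMT *Pcbp1*–/– tumors against 31.6% ± 5.15 (SD, n = 5) across PyMT *Pcbp1*+/+ tumors. The sum itself was 74.5 ± 15.5 CPM (SD, n = 6) and 76.5 ± 14.2 CPM (SD, n = 5), and with the 3 genes summed before the fit its log2 fold change was -0.04 (SE 0.165). The sum differed by less than the spread between tumors, while the split between the copies differed by more. *Slfn10-ps*, annotated as a transcribed pseudogene, averaged 6.48 ± 1.45 CPM (SD, n = 6) across PyMT *Pcbp1*–/– tumors against 7.57 ± 1.68 CPM (SD, n = 5) across PyMT *Pcbp1*+/+ tumors, with overlapping groups (edgeR adjusted p = 0.554).

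**Figure D2:**
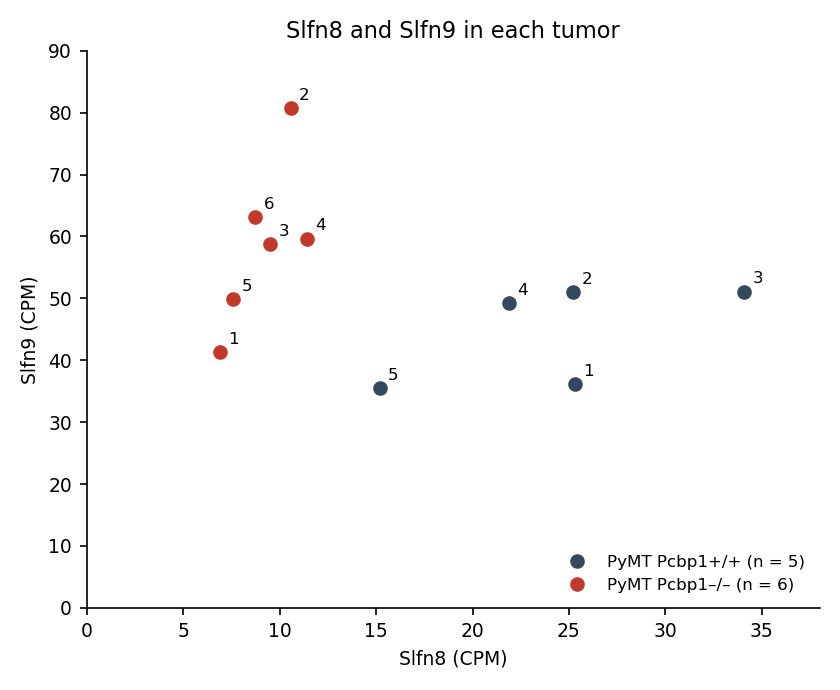
*Slfn8* CPM (horizontal axis) against *Slfn9* CPM (vertical axis) in each tumor, numbered by replicate, with PyMT *Pcbp1*–/– tumors in red and PyMT *Pcbp1*+/+ tumors in dark blue. The groups part along the *Slfn8* axis between 11.4 and 15.2 CPM and overlap along the *Slfn9* axis.

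Across the 11 tumors, after the group means were taken out, *Slfn8* and *Slfn9* had the highest Pearson r of the 15 pairs of tested members, 0.689, on log2 values. Without taking out the group means, the r of this pair was -0.273. These values describe these 11 tumors and genes that share sequence.

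*Slfn5*, the remaining long member and the gene at one end of the cluster, is known as an interferon-induced nuclear protein. Its gene (ENSMUSG00000054404.13) lies on the plus strand from 82951349 to 82964840. It had a lowest, median and highest value of 11.5, 15.5 and 29.2 CPM in PyMT *Pcbp1*–/– tumors, while PyMT *Pcbp1*+/+ replicates 1 to 5 held 34.6, 20.6, 49.6, 32.0 and 8.50 CPM. The lowest value of all 11 tumors came from PyMT *Pcbp1*+/+ replicate 5 and the highest from PyMT *Pcbp1*+/+ replicate 3, so that all 6 PyMT *Pcbp1*–/– tumors lay within the PyMT *Pcbp1*+/+ range. The log2 fold change of -0.78 (SE 0.37) did not pass the adjustment (edgeR adjusted p = 0.284). Without PyMT *Pcbp1*+/+ replicate 3 it was -0.44, and over all alternatives the adjusted p ranged from 0.0694 to 0.569. The antisense gene *Slfn5os* overlaps *Slfn5*, all 11 counts of both were not whole, and whether the counting used the strand is not given in the sources used here. *Slfn5os* itself reached at most 1.07 CPM, too low to have been tested.

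*Slfn2* is a short member that lacks the helicase-like region. It keeps T cells and monocytes quiescent and shields tRNA from cleavage. Its gene (ENSMUSG00000072620.3) lies on the plus strand from 83065112 to 83070678. PyMT *Pcbp1*–/– tumors had a lowest, median and highest value of 4.35, 7.46 and 9.04 CPM, and PyMT *Pcbp1*+/+ replicates 1 to 5 had 11.9, 7.02, 17.96, 13.3 and 10.2 CPM. All PyMT *Pcbp1*+/+ tumors but replicate 2 lay above every PyMT *Pcbp1*–/– tumor, so that 1 tumor made the groups overlap. The log2 fold change of -0.81 (SE 0.27) did not pass the adjustment (edgeR adjusted p = 0.142) and did so with limma-voom and sample quality weights, where it was -0.89 (adjusted p = 0.0301). The adjusted p ranged up to 0.298 over the alternatives. The mean CPM differed with p = 0.0260 in an exact permutation test (two-sided).

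*Slfn1*, the other short member, slows the growth of T cells when it is expressed in them (ENSMUSG00000078763.2, plus strand, 83116849 to 83122670). It had between 0 and 9 counts in a tumor and was not tested. Its CPM was at most 0.256 in PyMT *Pcbp1*–/– tumors and at most 0.789 in PyMT *Pcbp1*+/+ tumors, the latter in replicate 3. Both PyMT *Pcbp1*–/– replicate 5 and PyMT *Pcbp1*+/+ replicate 5 had a count of 0, which allows up to 0.213 and 0.268 CPM. A difference was not detectable at this depth (p = 0.165, two-sided exact permutation test of mean CPM).

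*Slfn4* is a member of intermediate length that is known as a marker of activated macrophages and other myeloid cells. Its gene (ENSMUSG00000000204.16) lies on the plus strand from 83175186 to 83190216. Its lowest, median and highest value was 0.225, 0.866 and 1.16 CPM in PyMT *Pcbp1*–/– tumors, and PyMT *Pcbp1*+/+ replicates 1 to 5 had 1.01, 4.93, 1.31, 4.56 and 1.43 CPM. PyMT *Pcbp1*+/+ replicates 2 and 4 stood well above the rest, the other 3 were close to the PyMT *Pcbp1*–/– tumors, and PyMT *Pcbp1*–/– replicate 3 lay just above PyMT *Pcbp1*+/+ replicate 1. The log2 fold change of -1.75 (SE 0.49), from between 3 and 52 counts per tumor, did not pass the adjustment (edgeR adjusted p = 0.0840). It passed with DESeq2 (adjusted p = 0.0186), and the adjusted p ranged up to 0.251 over the alternatives. With limma on log2(CPM + 1), a scale that understates the change of low genes, the value was -0.90. The mean CPM differed with p = 0.00866 in an exact permutation test (two-sided).

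*Slfn3*, the other member of intermediate length, lies next to *Slfn4* on the same strand (ENSMUSG00000018986.10, 83191330 to 83215154). It had between 4 and 23 counts in a tumor. Its CPM was 1.16 ± 0.482 (SD, n = 6) across PyMT *Pcbp1*–/– tumors against 1.26 ± 0.430 (SD, n = 5) across PyMT *Pcbp1*+/+ tumors. The ranges of the groups, 0.356 to 1.72 and 0.729 to 1.80 CPM, nearly coincided. Its log2 fold change was -0.12 (SE 0.35, with an edgeR adjusted p of 0.890), which became 0.07 without PyMT *Pcbp1*–/– replicate 3 and 0.04 without PyMT *Pcbp1*+/+ replicate 2.

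*Slfn3* and *Slfn4* also share sequence, with 6.58% of the 50-base stretches of *Slfn4* found in *Slfn3*. The summed CPM of both genes was 1.93 ± 0.246 (SD, n = 6) across PyMT *Pcbp1*–/– tumors against 3.91 ± 1.99 (SD, n = 5) across PyMT *Pcbp1*+/+ tumors. It was at most 2.22 in PyMT *Pcbp1*–/– tumors and 2.56, 6.73, 2.54, 5.29 and 2.41 in PyMT *Pcbp1*+/+ replicates 1 to 5, so that the groups did not overlap. With both genes summed before the fit, the log2 fold change was -0.9996 (SE 0.279).

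The 7 genes span 263806 bases, from 82951349 to 83215154. The nearest tested gene before the cluster, *Nle1*, had a log2 fold change of -0.19 (edgeR adjusted p = 0.622). Beyond *Slfn3* lie 2 overlapping genes on the plus strand. The first, RP23-381B19.2 (83223576 to 83226604), has the Ensembl identifier of a long noncoding RNA that GENCODE vM39 calls *Slfnlnc*. It had a lowest, median and highest value of 6.14, 8.71 and 17.4 CPM in PyMT *Pcbp1*–/– tumors, while PyMT *Pcbp1*+/+ replicates 1 to 5 held 5.94, 0.948, 4.91, 2.92 and 1.16 CPM. The groups did not overlap, and the log2 fold change of 1.62 (SE 0.44) had an adjusted p of 0.0749 with edgeR. It passed with DESeq2 (adjusted p = 0.00807) and with limma-voom (adjusted p = 0.0411), and the adjusted p ranged up to 0.161 over the alternatives.

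The second, RP23-381B19.3 (83224454 to 83260960), is annotated as a transcribed pseudogene, and GENCODE vM39 calls it *Gm11427*. Of the 50-base stretches of its canonical transcript, 97.2% occur in ENSMUSG00000121399, a long noncoding RNA gene of GENCODE vM39 that also holds 23.2% of those of RP23-381B19.2. The share found in *Slfn3* was 13.4% and in *Slfn4* 9.78%. All 11 counts of *Slfn3*, of *Slfn4* and of this pseudogene were whole numbers within 0.01. How reads that fit several of these genes were assigned is not given, so the counts of this pseudogene are uncertain. Its lowest, median and highest value was 3.51, 4.20 and 9.74 CPM in PyMT *Pcbp1*–/– tumors, and it was at most 2.19 CPM in PyMT *Pcbp1*+/+ tumors, with no overlap. It rose by a log2 fold change of 2.45 (SE 0.58, with an edgeR adjusted p of 0.0494), a call that 12 of 20 alternatives did not keep. Those 12 include leaving out PyMT *Pcbp1*–/– replicate 1, 3, 4, 5 or 6 or PyMT *Pcbp1*+/+ replicate 3, 4 or 5, where the adjusted p from edgeR was between 0.0790 and 0.111. Added to *Slfn3* and *Slfn4*, a sum chosen after the values were seen, it gave 7.05 ± 2.51 CPM (SD, n = 6) and 4.85 ± 1.958 CPM (SD, n = 5), with overlapping groups. In all, 21 tested genes without a Schlafen name start inside the cluster or within 500000 bases of its ends, this pseudogene among them. The pseudogene was the only one of the 21 past the threshold with edgeR. Of the 21, 11 had a negative log2 fold change and 10 a positive one.

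**Figure D3:**
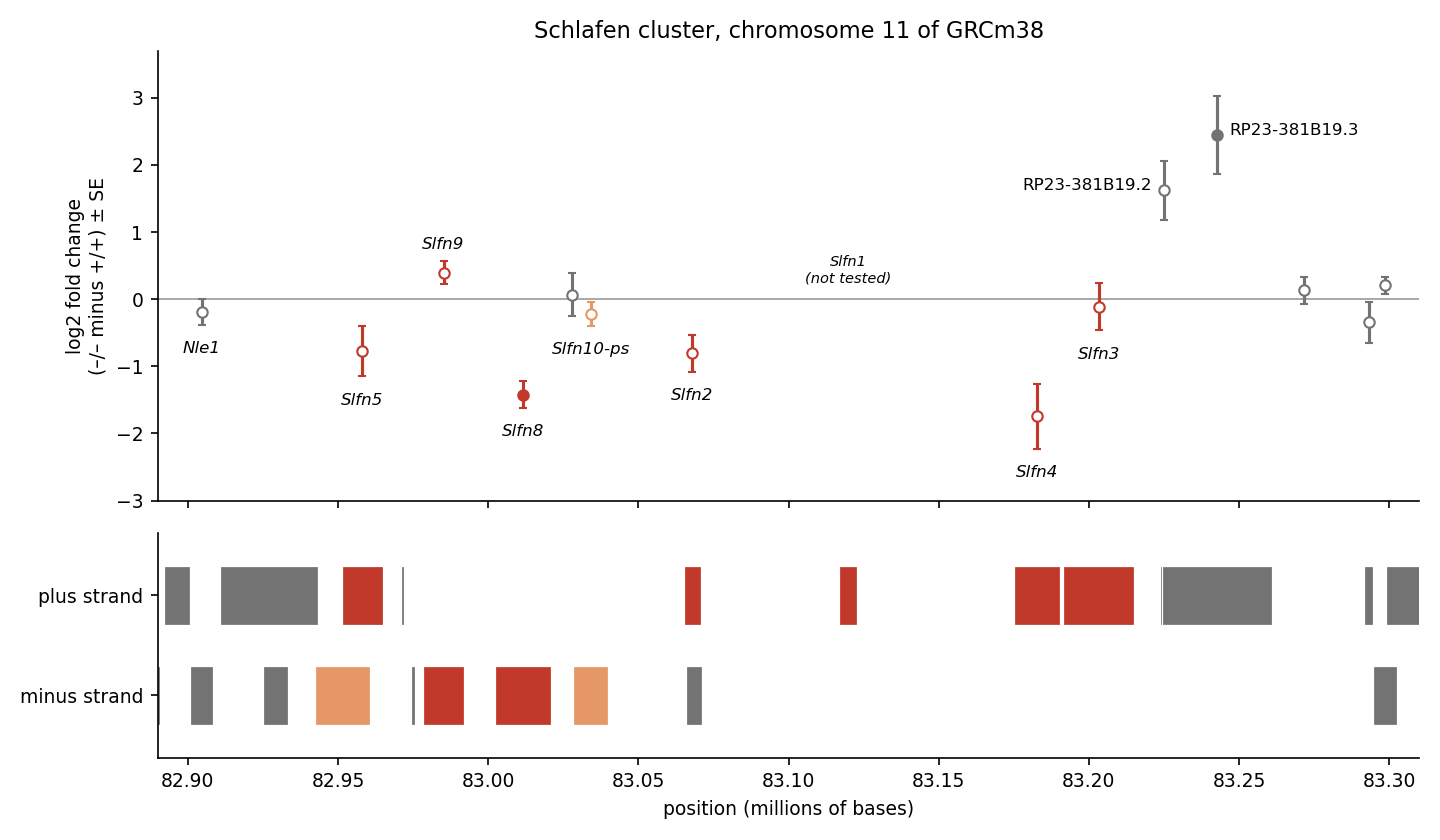
Log2 fold change with its standard error (upper vertical axis, PyMT *Pcbp1*–/– minus PyMT *Pcbp1*+/+) of tested genes by position on chromosome 11 of GRCm38 (horizontal axis, in megabases), above the extent of each gene by strand. Members are red, other Schlafen-named genes orange and other genes gray, and filled points have an adjusted p under 0.05, which are *Slfn8* at -1.42 and RP23-381B19.3 at 2.45.

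Levels of different members were compared as CPM per kilobase of the canonical transcript. In PyMT *Pcbp1*+/+ tumors, *Slfn9* (6.81 ± 1.23, SD, n = 5), *Slfn8* (6.19 ± 1.74, SD, n = 5), *Slfn2* (6.06 ± 2.03, SD, n = 5) and *Slfn5* (4.86 ± 2.59, SD, n = 5) had the highest means and did not differ beyond their spread. In PyMT *Pcbp1*–/– tumors, *Slfn9* stood alone at the top with 8.99 ± 2.03 CPM per kilobase (SD, n = 6), and its lowest tumor, at 6.31, was above the highest *Slfn5* tumor, at 4.88. *Slfn2* (3.47 ± 1.06, SD, n = 6), *Slfn5* (2.84 ± 1.09, SD, n = 6) and *Slfn8* (2.32 ± 0.438, SD, n = 6) followed and overlapped. *Slfn4*, *Slfn3* and *Slfn1* were last in both groups, at means of at most 0.683 CPM per kilobase. In plain CPM, *Slfn9* made up 62.3% ± 5.70 (SD, n = 6) of the 7 members' sum across PyMT *Pcbp1*–/– tumors against 40.2% ± 7.61 (SD, n = 5) across PyMT *Pcbp1*+/+ tumors, without overlap between the groups.

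The genes with the most similar pattern over the 11 tumors differed from member to member. The likeness was Pearson's r over 11 tumors of log2(CPM + 0.5), with CPM scaled by TMM factors, among tested genes with a mean of at least 1 CPM, and its value after taking out the group means follows in parentheses. For *Slfn8* they were *Helz2* with 0.976 (0.859), *Zfp932* with 0.974 (0.882) and *Znfx1* with 0.957 (0.831). Each of these 3 genes was itself called lower by edgeR, the highest adjusted p being 0.0274. They were picked by likeness that includes the group difference, so these calls are not independent of that choice. For *Slfn5* the most similar genes were RP23-14F5.8 with 0.971 (0.965) and *Ifi203-ps* and *Ifi213*, of the interferon-inducible Ifi200 genes, with 0.962 (0.955) and 0.959 (0.949). For *Slfn9* they were *Brca2* with 0.931 (0.935), *Depdc1a* with 0.894 (0.839) and *Mrm1* with 0.889 (0.901). For *Slfn2* they were *Mob2* with 0.931 (0.903), *Il2ra*, a receptor chain of activated and regulatory T cells, with 0.905 (0.839) and *Deaf1* with 0.904 (0.863). *Slfn4* was followed by RP23-182A11.1, *Rom1* and *Thap3* and *Slfn3* by RP24-194N1.2, RP24-93F18.2 and *Klhl26*, both from low counts. No gene stood on more than 1 member's list. On the deposited CPM, a scale tried after the data were seen, all 3 genes named for *Slfn8* and all 3 for *Slfn5* came first again, beside 2 of 3 for *Slfn3*, 2 of 3 for *Slfn4*, 1 of 3 for *Slfn2* (*Il2ra*) and 1 of 3 for *Slfn9* (*Brca2*).

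Promoter sequence was taken from RefSeq for build GRCm38.p6, as 250 bases before and 50 after a gene's start, and all 7 members matched, with 8 windows since *Slfn8* has 2 starts. The windows were searched on both strands for the core of the interferon-stimulated response element, written GAAANNGAAA, and for the gamma-activated site, written TTCNNNGAA, where N is any base. The response element core was found in the windows of *Slfn5*, *Slfn8* and *Slfn9*, 3 of the 7 members and 4 of the 8 windows, and in 3.44% of all 32851 promoters. The gamma-activated site was found in 0 of the 8 windows and in 8.30% of all promoters. These 3 windows are shown because *Slfn8* and *Slfn9* hold the same letters, on the strand opposite to the gene, at positions -48 and -45 from the gene start (-136 from the other *Slfn8* start), and their log2 fold changes had opposite signs. Aligned end to end, the windows of *Slfn8* and *Slfn9* were 80.5% identical, and the other pairs of members were at most 49.4% identical. In *Slfn5* the match starts at position -155 from the RefSeq start, which lies 753 bases from the start in the deposited table. Each sequence is written 5′ to 3′ on the strand of its gene, and capitals mark the match, which describes letters and not a bound site.
*Slfn8*, chr11:83020761-83021060, minus strand: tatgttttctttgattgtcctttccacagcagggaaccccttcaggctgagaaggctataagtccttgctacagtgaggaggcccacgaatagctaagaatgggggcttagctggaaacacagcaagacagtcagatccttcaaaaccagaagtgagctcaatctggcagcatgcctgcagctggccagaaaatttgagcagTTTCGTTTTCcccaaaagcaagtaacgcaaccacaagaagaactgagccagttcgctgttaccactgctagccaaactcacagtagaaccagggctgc
*Slfn9*, chr11:82991781-82992080, minus strand: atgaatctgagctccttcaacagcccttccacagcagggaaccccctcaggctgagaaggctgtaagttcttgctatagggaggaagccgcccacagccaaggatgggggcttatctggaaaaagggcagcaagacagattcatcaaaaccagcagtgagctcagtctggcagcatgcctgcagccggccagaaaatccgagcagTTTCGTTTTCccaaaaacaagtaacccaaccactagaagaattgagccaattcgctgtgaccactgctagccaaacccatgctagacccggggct
*Slfn5*, chr11:82951852-82952151, plus strand: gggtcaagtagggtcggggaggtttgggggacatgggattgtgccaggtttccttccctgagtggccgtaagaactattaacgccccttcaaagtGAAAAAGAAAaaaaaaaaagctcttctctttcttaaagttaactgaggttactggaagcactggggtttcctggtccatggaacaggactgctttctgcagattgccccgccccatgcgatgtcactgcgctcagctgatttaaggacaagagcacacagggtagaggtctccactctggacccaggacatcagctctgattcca

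The interferon pathway upstream of these genes was followed with lists of ligands, receptors, signaling proteins and inhibitors. Of 10 listed ligands, 2 were analysed here, and *Ifnb1* and the *Ifna* genes were not among them. *Ifnk* had a log2 fold change of -0.16 (edgeR adjusted p = 0.798), and *Ifng* was too low to be tested, at most 0.284 CPM. Of 6 receptor genes, *Ifnlr1*, the receptor chain for type III interferons, was lower (-0.58, edgeR adjusted p = 0.0391), and *Ifnar1* and *Ifnar2*, the receptor of type I interferons, had log2 fold changes of 0.09 and -0.02. Of 10 kinases and transcription factors, 3 were lower, *Irf7* (-2.89, edgeR adjusted p = 0.00194), *Stat2* (-1.42, adjusted p = 0.0113) and *Irf9* (-0.85, adjusted p = 0.0254). Of 6 inhibitors, *Usp18* was lower (-1.63, edgeR adjusted p = 0.0309). *Slfn8*, at -1.42, was close in size to *Stat2*, and the difference between them was not tested.

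The 8 interferon-stimulated genes set beside the family (*Isg15*, *Ifit1*, *Ifit3*, *Oas2*, *Rsad2*, *Mx1*, *Bst2* and *Oasl2*) all fell, with log2 fold changes from -3.05 for *Rsad2* to -1.70 for *Bst2* and a median of -2.71 (highest edgeR adjusted p 0.00743). Several of them are genes that the study itself shows for these tumors, so their count is not independent of that choice. Each of these 8 log2 fold changes was more negative than that of *Slfn8*, a difference that was not tested. Their summed CPM ranged from 31.6 to 87.2 (median 56.4) across PyMT *Pcbp1*–/– tumors and was 420, 373, 594, 421 and 122 in PyMT *Pcbp1*+/+ replicates 1 to 5. PyMT *Pcbp1*+/+ replicate 5, the lowest of its group here, was also the lowest PyMT *Pcbp1*+/+ tumor for *Slfn5*, *Slfn8* and *Slfn9*, and PyMT *Pcbp1*+/+ replicate 3, the highest here, was also the highest for *Slfn2*, *Slfn5*, *Slfn8* and *Slfn9*. After the group means were taken out, the r with this sum over 11 tumors was 0.872 for *Slfn5* (Spearman's rho 0.882, and r 0.950 over 9 tumors without the 2 farthest from the median of the sum). For *Slfn8* it was 0.401 (rho 0.10, and r 0.177 over 9 tumors), and for the other tested members it was between 0.0103 and 0.344. Among these, *Slfn4* turned from 0.213 to -0.455 over 9 tumors (rho 0 over 11), so its sign rests on the 2 tumors left out.

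Because some Schlafen proteins cut tRNA and *Slfn2* protects it, 9 genes of tRNA cleavage, processing and protection were measured beside them. With edgeR, DESeq2 and limma-voom, 0 of the 9 passed an adjusted p under 0.05, and 1 of them, *Trdmt1*, a tRNA methyltransferase, had an unadjusted p under 0.05 from edgeR. The median log2 fold change of the 9 was -0.05. *Ang*, the ribonuclease angiogenin from which *Slfn2* shields tRNA, had 2.53 CPM and 2.37 CPM on average in PyMT *Pcbp1*–/– and PyMT *Pcbp1*+/+ tumors, with a log2 fold change of 0.09 (SE 0.33).

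Markers of leukocytes, where Schlafen transcripts are known, were measured together with those of tumor epithelium, fibroblasts and endothelium. With edgeR, 0 of the 43 tested markers of these 10 cell type lists passed an adjusted p under 0.05, with 1 lower and 1 higher at an unadjusted p under 0.05. DESeq2 called *Lyz2*, of the macrophage list, higher, and limma-voom called *Lyz2* higher and *Clec9a*, of the dendritic cell list, lower. The summed CPM of the 10 macrophage and monocyte markers, led by *Lyz2*, ranged from 313 to 552 (median 426) across PyMT *Pcbp1*–/– tumors and was 335, 189, 431, 299 and 181 in PyMT *Pcbp1*+/+ replicates 1 to 5. In 9 of the 10 the log2 fold change was positive, whereas the macrophage-linked *Slfn4* had a negative one. Over all genes tested, 9619 of 19232 were negative. Of the 5 fibroblast markers, 4 had a positive log2 fold change (median 0.289), and all 5 endothelium markers had a negative one (median -0.242). The 8 T cell markers, led by *Cd8a*, summed to 5.35 to 10.3 CPM (median 8.81) across PyMT *Pcbp1*–/– tumors and to 10.8, 6.45, 8.85, 11.8 and 4.98 CPM in PyMT *Pcbp1*+/+ tumors. The 5 markers of all leukocytes, led by *Ptprc*, summed to 55.4 to 118 CPM (median 83.5) across PyMT *Pcbp1*–/– tumors and to 96.0, 64.8, 123, 95.6 and 50.9 CPM in PyMT *Pcbp1*+/+ tumors. In these 3 sums the groups overlapped, and PyMT *Pcbp1*+/+ replicate 5 was the lowest of all 11 tumors.

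After the group means were taken out, the r of *Slfn5* over 11 tumors was 0.884 with the macrophage sum (rho 0.900, and 0.891 over 9 tumors) and 0.877 with the sum for all leukocytes (rho 0.927, and 0.798 over 9 tumors). With the T cell sum it was 0.477 (rho 0.345, and 0.0641 over 9 tumors), so that this relation rests on the 2 tumors left out. *Slfn8* had r of 0.326 with the macrophage sum (rho 0.118, and 0.131 over 9 tumors) and 0.359 with the all-leukocyte sum (rho 0.236, and -0.119 over 9 tumors), values that rest on the tumors left out. *Slfn4* had -0.344 (rho -0.373, and -0.341 over 9 tumors) and -0.250 (rho -0.382, and -0.464 over 9 tumors) with the same sums. For *Slfn2* the r was 0.60 with the T cell sum (rho 0.445, and 0.583 over 9 tumors), 0.575 with the tumor epithelium sum (rho 0.409, and 0.363 over 9 tumors) and -0.631 with the neutrophil sum (rho -0.645, and -0.586 over 9 tumors). *Slfn3* ran the other way, with -0.511 for the T cell sum (rho -0.555, and -0.658 over 9 tumors), -0.564 for the tumor epithelium sum (rho -0.70, and -0.648 over 9 tumors) and 0.476 for the neutrophil sum (rho 0.536, and 0.136 over 9 tumors). With the tumor epithelium sum, *Slfn9* went from -0.128 (rho -0.364) to -0.742 over 9 tumors. The neutrophil markers *S100a8*, *S100a9*, *Cxcr2* and *Mmp8* were too low to be tested and reached at most 2.37 CPM in any tumor. Of the B cell markers, *Cd79b* alone was analysed here, and it reached at most 0.773 CPM. The 7 tumor epithelium markers, led by *Cdh1*, summed to 1602 ± 374 CPM (SD, n = 6) across PyMT *Pcbp1*–/– tumors against 1632 ± 249 CPM (SD, n = 5) across PyMT *Pcbp1*+/+ tumors, so the defining epithelial markers were abundant in both groups. The part of cell composition in the Schlafen values was not tested.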

How the data were processed

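Bulk mRNA of 11 mammary tumors was sequenced by the authors from poly(A)-enriched, stranded libraries, and paired-end reads were aligned to GRCm38 with Bowtie2 and processed in Partek Flow. The counting method and the annotation version are not given in the sources used here. The authors deposited estimated counts per gene and CPM, each count scaled by its column sum. Counts were rounded to whole numbers and tested with edgeR 4.0.16 (R 4.3.3, TMM factors, default filter, genotype as the only term), which kept 19232 of 26283 genes. A call was an adjusted p under 0.05. Each standard error is the size of the log2 fold change over the square root of F. Alternatives were DESeq2 1.42.0, other scalings and filters, limma 3.58.1 (voom, or log2 of CPM with a pseudocount), a replicate block, summed copies and each tumor left out. The tests were first run on simulated data. Deposited stops lie one past the gene end. Transcript lengths and 50-base stretches came from GENCODE vM39, without coordinates. Named genes were the members, other Schlafen-named genes, *Pcbp1*, genes of the lists, called and nearest tested neighbors, and for each tested member 3 genes by likeness, also tried on the deposited CPM after the data were seen. RP23-381B19.3 was also summed with *Slfn3* and *Slfn4* after its values were seen. The members and lists were chosen with earlier results of these data known.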

Additional observations from a re-analysis of the deposited data

Results flagged for a closer look

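In 74 groups of values, of members, sums and marker lists, 2 held a tumor that stood apart from its group, where chance gives about 1 in 20 groups, or 3.7. PyMT *Pcbp1*–/– replicate 1 had 9.74 CPM of the pseudogene RP23-381B19.3, with the nearest PyMT *Pcbp1*–/– tumor at 5.49 CPM. The summed CPM of *Slfn3*, *Slfn4* and RP23-381B19.3 was 11.96 in that tumor, with the nearest at 7.42, and most of this sum is the pseudogene. The cause was not tested.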

How the results depend on the processing

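The fall of *Slfn8* held its direction and its call in 20 of 20 alternatives that did not sum it with its copies. *Pcbp1* stayed between -3.60 and -3.34. The members lower at an adjusted p under 0.05 were 1 in 18 of 20 alternatives, and 2 with DESeq2 (*Slfn8*, *Slfn4*) and 2 with limma-voom (*Slfn8*, *Slfn2*). With the copies summed, *Slfn8* and *Slfn9* became -0.0440. Leaving out single tumors, the members without overlap numbered between 1 and 2, with *Slfn4* added without PyMT *Pcbp1*–/– replicate 3 or PyMT *Pcbp1*+/+ replicate 1 and *Slfn2* without PyMT *Pcbp1*+/+ replicate 2. Leaving out a tumor can only keep or add genes without overlap. The share of all genes without overlap was not counted in these settings, so the added members have no background here. With single tumors left out, the log2 fold change of *Slfn3* ranged from -0.269 to 0.0653, positive without PyMT *Pcbp1*–/– replicate 3 (0.0653) and 0.0439 without PyMT *Pcbp1*+/+ replicate 2.

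Of all genes, 319 were lower and 117 higher with edgeR, 723 and 482 with DESeq2 (40.0% higher against 26.8%), and 1190 and 968 with limma-voom (44.9%). Leaving out single tumors gave from 144 to 389 lower and from 41 to 187 higher, with over 1.5 times fewer of both without PyMT *Pcbp1*–/– replicate 3, 4, 5 or 6 or PyMT *Pcbp1*+/+ replicate 1, 3 or 4. No other scaling or filter moved these counts by more than 1.5 times. With the replicate block over the 10 tumors numbered 1 to 5, 118 were lower and 42 higher and *Slfn8* was -1.39 (adjusted p = 0.0349 from edgeR). Tumors with the same number did not deviate together (r between -0.144 and 0.293), so the numbers only name the tumors. The fewer tumors are part of the settings that leave tumors out. The other causes were not tested. Counts of at most 52 per tumor limit *Slfn1*, *Slfn3* and *Slfn4*.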
